A study of Mus musculus with 4 samples.

Results

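Oxidative phosphorylation is the mitochondrial pathway that turns the electrons of NADH and succinate into ATP. Complex I (NADH dehydrogenase) and complex II (succinate dehydrogenase) pass electrons to ubiquinone, complex III (cytochrome bc1) passes them to cytochrome c, complex IV (cytochrome c oxidase) passes them to oxygen, and complex V (ATP synthase) uses the proton gradient so made. Most of the subunits are coded in the nucleus and a minority in mitochondrial DNA, and stem cells are known to lean on glycolysis more than their neuronal descendants do. The subunit genes were taken from all probe sets with 1 annotated gene symbol. The whole symbol had to have the form of a subunit name of complexes I to V, or be Cyc1 or Cycs. That gave 151 probe sets of 80 genes, out of 12393 genes with such a probe set and 22626 probe sets on the arrays, and each gene was represented by its probe set with the highest mean. A further 7 probe sets carry a subunit symbol together with another symbol and were not used.

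The RNA came from P19, a mouse embryonal carcinoma line whose aggregates take on neural fates under retinoic acid. Unmodified P19 served as control, and the compared line expressed human LIN28A constitutively, a protein known to bind let-7 precursors and keep them from maturing. Aggregates of either line were kept with all-trans retinoic acid at 5e-07 M until day 4, and each line was put on 2 Affymetrix arrays numbered 1 and 2. The labels do not say which promoter drives LIN28A, whether the line is 1 clone, or whether the numbers mark separate cultures, so all spreads here are spreads between arrays and may be technical. The comparison asks whether the nuclear-coded respiratory subunits read differently when LIN28A is kept on.

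The arrays shared 1 trimmed mean in the deposited linear intensities, and their medians ranged from 29.0 to 38.6. Quality values moved with the replicate number. An 18S ribosomal RNA probe set read 677 and 136 in control 1 and LIN28A 1 against 9.20 and 11.3 in control 2 and LIN28A 2, and the hybridisation spike-in BioB read 524 and 269 against 165 and 161. For Gapdh the 3' over 5' probe set ratio came to 1.15 and 1.12 in number 1 against 0.775 and 0.821 in number 2. For beta-actin it was 4.71 in control 1 and 3.37 in LIN28A 1, against 2.76 in control 2 and 3.09 in LIN28A 2. Control 1 read highest for 18S, BioB and the beta-actin ratio, so quality also differed between the lines within number 1. The mouse Lin28a probe sets, which do not check the human transgene, read 30.7 and 76.2 in control, against 56.1 and 37.5 in LIN28A cells at 1 of the pair and 28.8 and 15.5 against 7.00 and 8.60 at the other. Of the marker lists, the 6 neural progenitor markers summed to 2909 and 4257 in control, against 3556 and 2610.4 in LIN28A cells. Within that list Sox2 was lower in both LIN28A arrays, Hes5 was higher (186 and 194 against 924 and 337), and Nes, Pax6, Sox1 and Fabp7 overlapped. The 6 pluripotency markers summed to 167 and 397 against 247 and 919. Of these Pou5f1 read 30.3 and 374 against 28.7 and 775, so it was high in number 2 of both lines. Sall4 read 16.4 and 2.10 against 194 and 83.1. Nanog, Zfp42, Dppa5a and Tdgf1 overlapped, with mean LIN28A minus control differences of -0.40 to -0.061 on the scale log2(intensity + 16). The median difference of the list was -0.13, with 5 of 6 markers below control in number 1 and 0 in number 2. The 5 mesoderm and muscle markers measured summed to 125 and 61.9 against 183 and 149. Most of that was Acta2 (74.7 and 40.9 against 142.5 and 98.9), which was higher in both LIN28A arrays. In number 1, 4 of the 5 markers lay below control, against 1 in number 2. Myh6 was lower in both LIN28A arrays, at values of 0.40 to 1.90, and Mesp1, Des and Actc1 overlapped. The 4 glial markers summed to 12.7 to 66.4 and the 6 endoderm markers to 27.8 to 69.7 over the 4 arrays. The 7 neuronal markers summed to 2173 and 3083 in control, against 1015 and 2188 in LIN28A cells, and 6 of them lay lower in LIN28A cells in both numbers. Whether the makeup of cell types plays a part in any subunit value was not tested, and in such bulk RNA fewer cells of a type and less RNA per cell cannot be told apart.

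Promoters of 5 subunit genes are shown because these genes were among those with the widest differences between the lines. Ndufa4, Cycs and Ndufa3 read higher in LIN28A cells, and Ndufa6 and Atp5g2 lower. Each run is 300 bases from RefSeq's table of promoters on GRCm38.p6, 250 bases before to 50 after the gene's start, and capitals mark motif matches.
Ndufa4, chr6:11907401-11907700, minus strand: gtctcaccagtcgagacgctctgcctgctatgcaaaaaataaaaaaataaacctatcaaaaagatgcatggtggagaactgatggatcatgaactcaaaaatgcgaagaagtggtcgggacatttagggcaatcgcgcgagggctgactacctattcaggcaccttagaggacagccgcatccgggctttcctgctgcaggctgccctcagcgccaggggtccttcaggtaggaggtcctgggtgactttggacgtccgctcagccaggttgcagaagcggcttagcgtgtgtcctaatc
Cycs, chr6:50566520-50566819, minus strand: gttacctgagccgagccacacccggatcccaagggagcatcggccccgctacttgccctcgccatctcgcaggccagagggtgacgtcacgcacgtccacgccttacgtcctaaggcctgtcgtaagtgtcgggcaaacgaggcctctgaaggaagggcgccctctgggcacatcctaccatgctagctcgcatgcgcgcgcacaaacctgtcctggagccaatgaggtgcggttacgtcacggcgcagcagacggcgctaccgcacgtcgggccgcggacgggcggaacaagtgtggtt
Ndufa3, chr7:3617123-3617422, plus strand: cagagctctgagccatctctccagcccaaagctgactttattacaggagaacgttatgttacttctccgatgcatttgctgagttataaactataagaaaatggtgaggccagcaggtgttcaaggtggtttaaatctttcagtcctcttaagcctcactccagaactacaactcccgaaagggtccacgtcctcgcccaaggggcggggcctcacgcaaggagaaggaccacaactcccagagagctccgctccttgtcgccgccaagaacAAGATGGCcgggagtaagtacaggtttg
Ndufa6, chr15:82354242-82354541, minus strand: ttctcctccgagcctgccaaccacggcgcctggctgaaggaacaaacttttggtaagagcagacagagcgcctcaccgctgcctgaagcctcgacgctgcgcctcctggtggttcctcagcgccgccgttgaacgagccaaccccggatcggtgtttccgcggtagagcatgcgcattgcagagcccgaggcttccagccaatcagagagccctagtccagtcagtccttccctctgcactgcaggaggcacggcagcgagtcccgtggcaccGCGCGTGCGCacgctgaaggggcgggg
Atp5g2, chr15:102670998-102671297, minus strand: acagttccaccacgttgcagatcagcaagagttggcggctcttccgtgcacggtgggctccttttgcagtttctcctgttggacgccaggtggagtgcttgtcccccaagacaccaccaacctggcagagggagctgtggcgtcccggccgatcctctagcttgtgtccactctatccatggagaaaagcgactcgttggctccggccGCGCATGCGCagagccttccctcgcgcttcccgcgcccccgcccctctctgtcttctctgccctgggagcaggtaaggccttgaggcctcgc

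The motifs searched on both strands were those of factors known to act at genes of respiration, namely GCGCA followed by any base and GCGC for NRF1, CCGGAAG for the GABP (ETS) family and AAGATGGC for YY1. The Atp5g2 window holds an NRF1 match at bases 209 to 218 and the Ndufa6 window holds one at bases 274 to 283, both counted from the 5' end. The Ndufa3 window holds a YY1 match at bases 273 to 280. The Ndufa4 and Cycs windows hold none of the 3 letter strings, which says only that these letters are not in these windows. A promoter window was at hand for 65 of the 80 genes, 70 windows in all. Of these windows 21.4% held the NRF1 string, 24.3% the GABP string and 12.9% the YY1 string, against 4.60%, 8.86% and 2.75% of all 32851 promoter windows in the table. No matches of different motifs overlapped in the subunit genes' windows. Matches are a description of sequence: NRF1 strings lie in windows of genes that read higher in LIN28A cells (Ndufa5) and of genes that read lower (Ndufa6, Atp5g2).

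The subunit genes, as scaled by the authors, did not shift between the lines in 1 shared direction. The median LIN28A minus control difference of the 80 genes, on the scale log2(intensity + 16), was -0.12 within number 1 and 0.065 within number 2, against -0.084 and 0.012 over the 8930 tested genes with 1 symbol. The median over both numbers was -0.012, and it went to 0.24 without control 1, -0.38 without control 2, -0.24 without LIN28A 1 and 0.19 without LIN28A 2. With each array centred on its median, the within-number medians became 0.081 and 0.12. Over both numbers the median then became 0.115 for the 80 genes and 0.090 for all tested genes. In number 1, 55 of the 80 genes lay below control, against 58.8% of all 15838 tested probe sets. In number 2, 34 lay below control, against 50.1%. Below control in both numbers were 28 genes (33.3% of all tested probe sets), above control in both were 19 (24.2%), and the other 33 changed side between the numbers. With a number as the only pair there is 1 array a group and no test. Of the 80 genes, 78 passed the filter on low values and entered limma's fit over all probe sets, where no probe set passed an adjusted p of 0.05 in either direction (0% higher, 0% below control). With p under 0.05 before adjustment that fit held 70 probe sets above control and 192 below, and 0 of them represented a subunit gene.

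**Figure D1:**
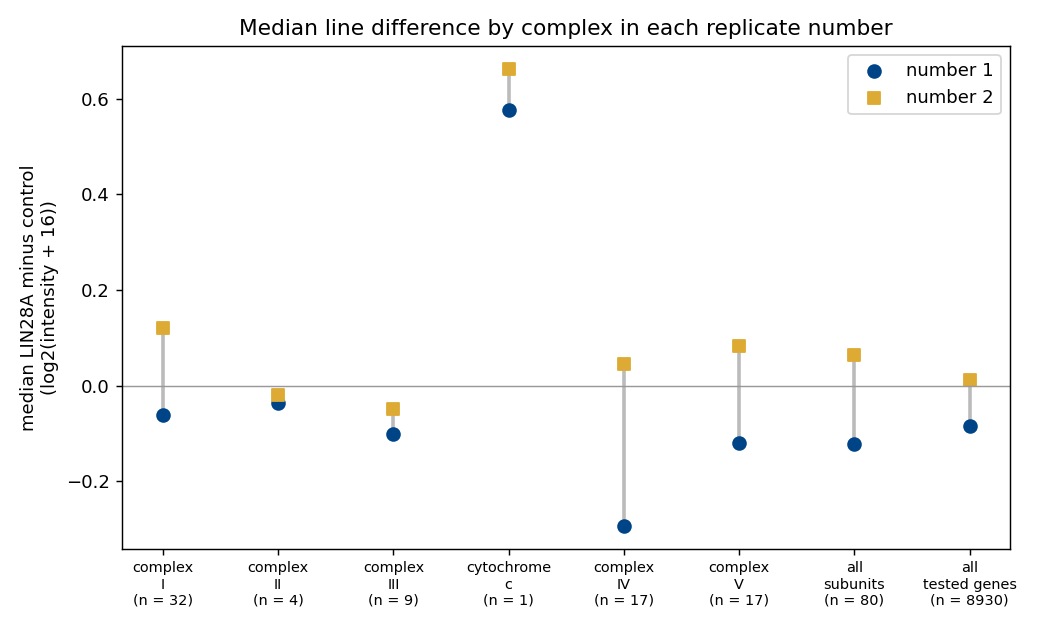
Median LIN28A minus control difference on the log2(intensity + 16) scale for each respiratory complex, all 80 subunit genes and all 8930 tested genes, with circles for number 1 and squares for number 2. Number 2 lies above number 1 in each column, and apart from cytochrome c, which is the single gene Cycs, the medians lie between -0.29 and 0.12.

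By complex, the within-number medians straddled 0 for complex I (-0.061 and 0.12 in numbers 1 and 2, 32 genes), complex IV (-0.29 and 0.044, 17 genes) and complex V (-0.12 and 0.082, 17 genes). They lay slightly below 0 in both numbers for complex II (-0.036 and -0.019, 4 genes) and complex III (-0.10 and -0.050, 9 genes). Centring each array on its median turned both above 0, to 0.17 and 0.032 for complex II and 0.10 and 0.0014 for complex III. Centring shifts all genes within a number by the same amount, so passing 0 is not a change against other genes. Over both numbers, centring gave 0.089 for complex II and 0.052 for complex III, against 0.090 over all tested genes. Under that scaling complexes I (0.14 and 0.17) and V (0.083 and 0.13) lay above 0 in both numbers too. In complex IV 15 of 17 genes lay below control in number 1 and 8 of 17 in number 2. The number 1 median of complex IV depended on the setting, at -0.090 with each array centred on its median, -0.069 after quantile normalization, -0.14 with a pseudocount of 64 and -0.45 with a pseudocount of 1. Over all tested genes the same medians differed by number too, -0.084 against 0.012. The 6 tissue isoforms of complex IV, had medians of -0.33 and -0.12. Without them the medians of the other 74 genes were -0.11 and 0.082.

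Single genes departed from this level in both numbers, and the widest were not confined to a complex. The genes past 0.5 on the log2 scale the same way in both numbers, a limit set after the values were seen, were Ndufa4, Cycs and Ndufa5 above control and Ndufa6 and Atp5g2 below. That is 3 and 2 of 80 genes, against 1.38% of all tested probe sets above and 2.65% below. Counted by gene, 6.25% of the subunit genes lay past 0.5 in both numbers. The share was 4.19% of all 8930 tested genes and 3.11% of those with a mean intensity of at least 500. With 5 genes this count is not taken as a trait of the subunit genes. Across the 80 genes the differences of number 1 and number 2, which share no array, correlated with a Pearson r of 0.57 and a Spearman rho of 0.49. Over all 8930 tested genes those were 0.23 and 0.24, and over the 1384 with a mean intensity of at least 500 they were 0.20 and 0.29. These correlations are across genes, which are not independent replicates and share arrays within each number.

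**Figure D2:**
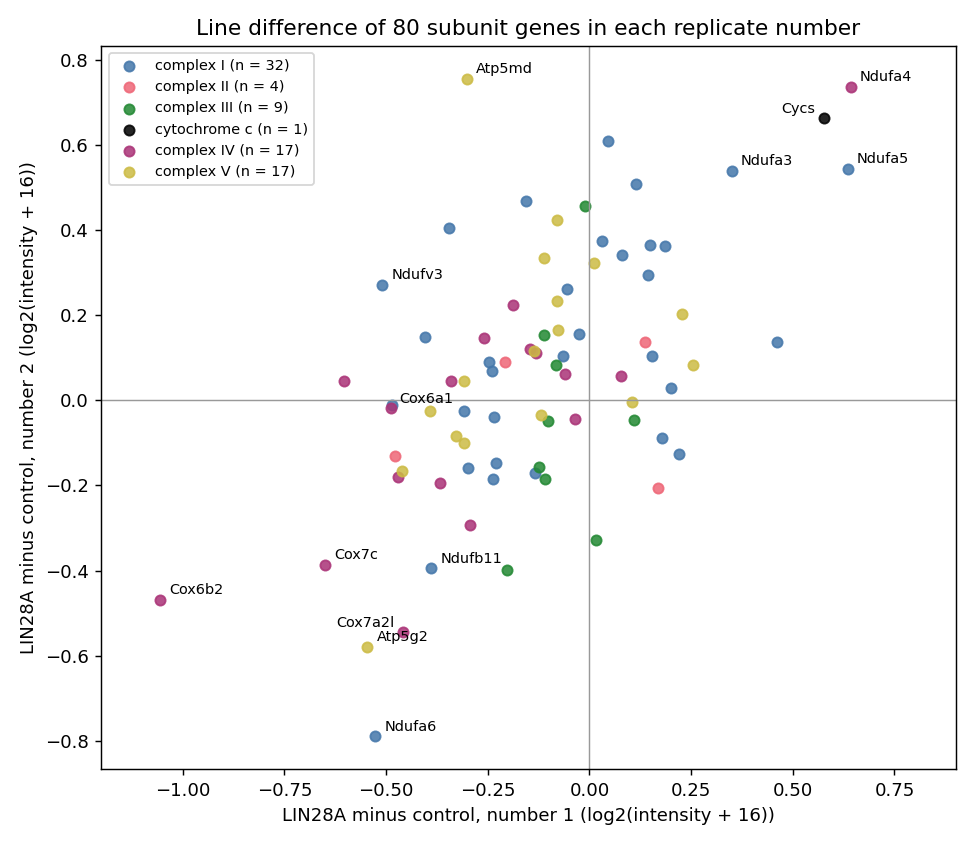
Each point is 1 of 80 subunit genes, with LIN28A minus control on the log2(intensity + 16) scale in number 1 on the horizontal axis and in number 2 on the vertical axis, coloured by complex. Ndufa4 (0.64 and 0.74), Cycs (0.58 and 0.66) and Ndufa5 (0.64 and 0.54) sit at the upper right, and Ndufa6 (-0.53 and -0.79) and Atp5g2 (-0.55 and -0.58) at the lower left.

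In complex I, the 6 core genes measured, which code for subunits carrying the flavin and iron-sulphur centres or the quinone site, had medians of 0.093 and 0.0082 in numbers 1 and 2. Ndufs1, which codes for the large iron-sulphur subunit, read 663 and 649 in control, against 469 and 643 in LIN28A cells. Its arrays did not overlap, but LIN28A 2 lay close under the controls and LIN28A 1 far under them. Ndufv2, another iron-sulphur subunit, read 1331 and 1251 in control, against 1482 and 1345 in LIN28A cells, so both LIN28A arrays were higher. Its other probe sets differed by 0.013 and -0.024. Ndufv1, the flavin-binding subunit, read 804 and 844 against 911 and 794, and the lines overlapped.

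Among the 26 accessory genes of complex I, which stabilise the enzyme without carrying electrons, the medians were -0.11 and 0.15. Ndufa5, a subunit of the matrix arm, read 707 and 391 in control, against 1107 and 577 in LIN28A cells. Each LIN28A array was above the control array of its number, at 1.57 and 1.48 times its value, although LIN28A 2 was below control 1. Its dimmer probe set read 215 and 117 against 397 and 223 and did not overlap. Ndufa3, a small subunit of the membrane arm, read 739 and 627 in control, against 945 and 919 in LIN28A cells, with no overlap. Its other probe set pointed the same way by 0.23 but overlapped. Ndufb1 read 43.8 and 34.0 against 48.7 and 55.1, again without overlap, at a low intensity.

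On the other side, Ndufa6, a LYR-motif subunit that holds the mitochondrial acyl carrier protein in complex I, read 1249 and 1002 in control, against 862 and 573 in LIN28A cells. Both LIN28A arrays were lower than both control arrays, and the log2 difference was -0.66 ± 0.33 (SE). Ndufb11, an X-linked membrane-arm subunit, read 3541 and 2156 in control, against 2700 and 1636 in LIN28A cells. The lines overlapped, yet within each number LIN28A read 0.763 and 0.759 of control, and its 3 probe sets differed by -0.42 to -0.35.

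Complex II is coded wholly in the nucleus, and all 4 of its genes were measured. Sdha, the flavoprotein that oxidises succinate, read 454 and 682 in control, against 512 and 589 in LIN28A cells, so it lay above control in number 1 and below it in number 2. Sdhb, the iron-sulphur subunit, read 1557 and 1054 against 1346 and 1124 and also changed side. The membrane anchors went opposite ways: Sdhc read 901 and 656 in control, against 642 and 598 in LIN28A cells, and Sdhd read 548 and 510 against 604 and 562. Neither anchor overlapped between the lines. Sdhc's other probe set was lower in LIN28A cells as well (-0.35), whereas Sdhd's other probe set differed by -0.30, the reverse of its brighter one.

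No gene of complex III kept the lines apart. Cyc1, the cytochrome c1 gene, read 1824 and 1566 in control, against 1699.7 and 1512 in LIN28A cells. Uqcrfs1, the Rieske iron-sulphur protein, gave the lowest mean difference of the complex, with 1138 and 912 against 987 and 687. Uqcrb, a small subunit that binds near the quinone site, read 4084 and 3025 against 4405 and 2931. Uqcr11 gave the highest mean difference, 0.22, all of it in number 2 (-0.011 and 0.46). Uqcrh read 1986 and 1443 in control, against 2009.5 and 1146 in LIN28A cells.

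Cycs, which codes for the somatic cytochrome c that shuttles electrons between complexes III and IV and triggers apoptosis in the cytosol, read 1357 and 793 in control, against 2031 and 1264 in LIN28A cells. The LIN28A arrays were 1.5 and 1.6 times the control arrays of their numbers, but LIN28A 2 was below control 1. The other 2 probe sets did not overlap, reading 873 and 597 against 1293 and 1041, and 366 and 297 against 655 and 477. All 3 probe sets of Cycs thus lay higher in LIN28A cells in both numbers, with mean log2 differences of 0.62 to 0.73.

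In complex IV, Ndufa4 gave the lowest unadjusted p of any subunit gene in limma's fit (0.056, adjusted p = 1.0). It is named for complex I but is now counted as a subunit of complex IV. It read 505 and 576 in control, against 798 and 971 in LIN28A cells, a log2 difference of 0.69 ± 0.29 (SE), and the lines did not overlap. It was also 1 of few subunit genes with a higher value in number 2 than in number 1. Cox7a2l, which links complexes III and IV into supercomplexes, read 2679.5 and 1887 in control, against 1947 and 1288 in LIN28A cells. It overlapped at that probe set and did not at the other 2, and the 3 probe sets differed by -0.54 to -0.50. Cox7c, a small structural subunit, read 76.9 and 64.4 against 43.2 and 45.5 at its brighter probe set. The other read 35.3 and 38.3 against 23.9 and 21.7, and neither overlapped. Neither probe set reached a mean intensity of 100, so these are low readings beside most other genes of the complex.

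**Figure D3:**
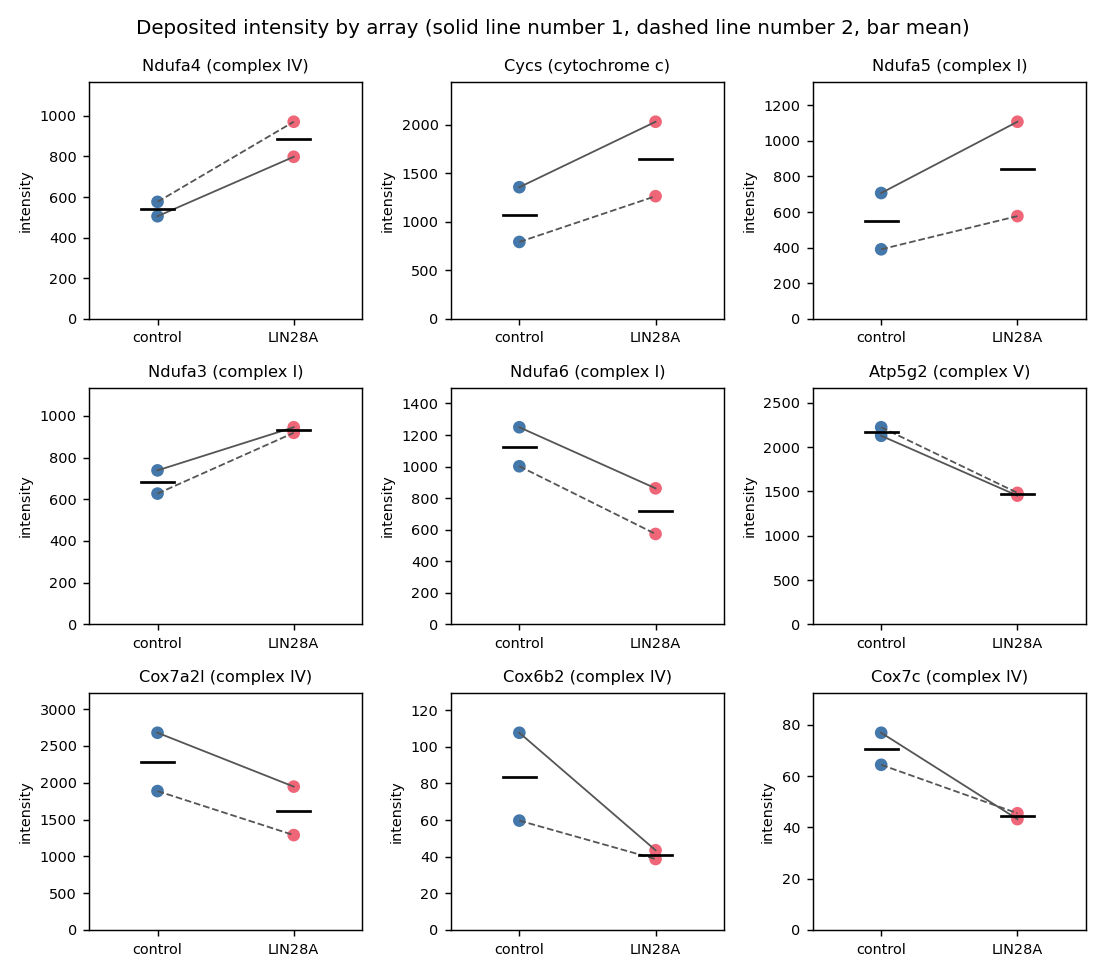
Deposited intensity (linear, vertical axes from 0) of 9 subunit genes in each of the 4 arrays, control at left and LIN28A at right in each panel, with bars for the mean of 2 arrays, solid lines joining number 1 and dashed lines joining number 2. Ndufa4, Cycs, Ndufa5 and Ndufa3 slope upward in both numbers and Ndufa6, Atp5g2, Cox7a2l, Cox6b2 and Cox7c downward, and Cycs, Ndufa5 and Cox7a2l overlap between the lines. Cox6b2 and Cox7c read low, at no more than 108 in any array.

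The large catalytic subunits of complex IV come from mitochondrial DNA, and its nuclear subunits include pairs of isoforms. Of the widely expressed isoforms, Cox4i1 read 5235 and 2889 in control, against 3771 and 2549 in LIN28A cells. Cox6a1 read 5819 and 3229.5 against 4141 and 3189, and Cox8a read 898.5 and 660.5 against 706 and 682. In these 3 genes the difference came mostly from number 1 (-0.47, -0.49 and -0.34, against -0.18, -0.018 and 0.045 in number 2). Cox7a2 read 5346 and 3138 in control, against 4878 and 3389 in LIN28A cells, and Cox6b1 read 4327 and 2015 against 3909 and 2192. Both overlapped. Cox5a was the other gene of the complex besides Ndufa4 to lie above control in both numbers, by 0.078 and 0.056.

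The tissue isoforms had low intensities, none over 108 in any array. Cox6b2, the testis isoform of Cox6b1, read 108 and 59.7 in control, against 43.5 and 38.7 in LIN28A cells. Its arrays did not overlap, and its log2 difference of -0.76 ± 0.35 (SE) was the lowest mean difference among the subunit genes. Cox8c, a testis isoform, read 54.3 and 25.6 against 30.3 and 26.9. The heart and muscle isoforms Cox6a2 (19.1 and 11.7 against 11.2 and 8.20) and Cox7a1 (16.6 and 12.2 against 10.6 and 7.00) were lower in both LIN28A arrays, at intensities near the pseudocount of 16. Cox8b, also of heart and muscle, read 0.30 to 0.80, and Cox4i2, the lung isoform, read 0.60 to 11.8. Neither passed the filter.

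In complex V, the 5 genes of the catalytic F1 head had medians of -0.31 and -0.036 and the 12 genes of the membrane Fo part and stalk -0.096 and 0.18. Atp5a1, the alpha subunit of F1, read 2320 and 2391 in control, against 1871.5 and 2227 in LIN28A cells. It did not overlap, and neither did the second of its 3 probe sets, all of which lay below 0. Atp5e, the epsilon subunit, read 1658 and 861.5 against 1199.9 and 766. Atp5pb, a subunit of the peripheral stalk, read 4451 and 2736 against 3544 and 2582.

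The ring of c subunits that turns in the membrane is made from Atp5g1, Atp5g2 and Atp5g3, which code for the same mature protein behind different import peptides. Atp5g2 read 2127 and 2223 in control, against 1452 and 1483 in LIN28A cells. The lines did not overlap, and LIN28A read 0.682 and 0.667 of control in the respective numbers, with a log2 difference of -0.56 ± 0.27 (SE). Atp5g1 read 744 and 534 against 874 and 617, a difference of 0.23 and 0.20 upward in the respective numbers. Atp5g3 read 3975 and 2119 against 3759 and 2493.5, and it changed side. Atp5md, a small subunit bound to the Fo part, changed side most widely, with 2067 and 616 in control, against 1673 and 1050.1 in LIN28A cells.

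Over all 80 genes, both LIN28A arrays lay below both control arrays for 10 and above for 5. The shares over all tested probe sets were 15.5% below and 10.0% above, so the subunit genes gave no more separated genes than the arrays did at large. With each array centred on its median, 4 genes lay below in place of 10, and 4 lay above in place of 5. That centring shifts all probe sets of an array alike, and the shares over all tested probe sets under it were not computed. The genes below were Ndufa6, Ndufs1, Sdhc, Cox6a2, Cox6b2, Cox7a1, Cox7c, Cox8b, Atp5a1 and Atp5g2. Cox8b did not pass the filter, and of the 78 genes that did, 9 lay below and 5 above. Cox6a2 and Cox7a1 read near the pseudocount of 16. The genes above were Ndufa3, Ndufb1, Ndufv2, Sdhd and Ndufa4.

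Between the numbers the subunit genes differed by more than between the lines. In control cells 74 of the 80 genes read lower in array 2 than in array 1, and in LIN28A cells 72 did, that is 92.5% and 90.0%. Over the 8930 tested genes those shares were 49.8% and 41.8%. The median of number 2 minus number 1 was -0.65 in control and -0.50 in LIN28A cells for the subunit genes, against 0.0006 and 0.10 over all tested genes. Summed over the subunit genes the intensity was 142159 and 88786 in control, against 128412 and 91416 in LIN28A cells, so number 1 stood above number 2 in both lines. Complex I had number medians of -0.70 in control and -0.59 in LIN28A cells, complex III of -0.46 and -0.54, complex IV of -0.71 and -0.21, and complex V of -0.66 and -0.41. Complex II differed least, with -0.27 and -0.10, and Sdha read higher in number 2 in both lines. Within complex I the accessory genes had medians of -0.78 and -0.61 and the core genes -0.25 and -0.22. The 18S, BioB and Gapdh values given above moved with the number as well. So did the 7 neuronal markers, with a median number 2 minus number 1 difference of 0.92 in control and 1.07 in LIN28A cells. Of these, 6 of 7 were higher in number 2 in each line. Pou5f1 was higher in number 2 of both lines, but the 6 pluripotency markers had medians of -0.61 in control and 0.30 in LIN28A cells. In control 5 of these 6 were lower in number 2, against 2 in LIN28A cells. The neural progenitor markers had medians of 0.56 and -0.55, so the lists did not move with the number in 1 way. The part of these quality values and markers in the difference was not tested.

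**Figure D4:**
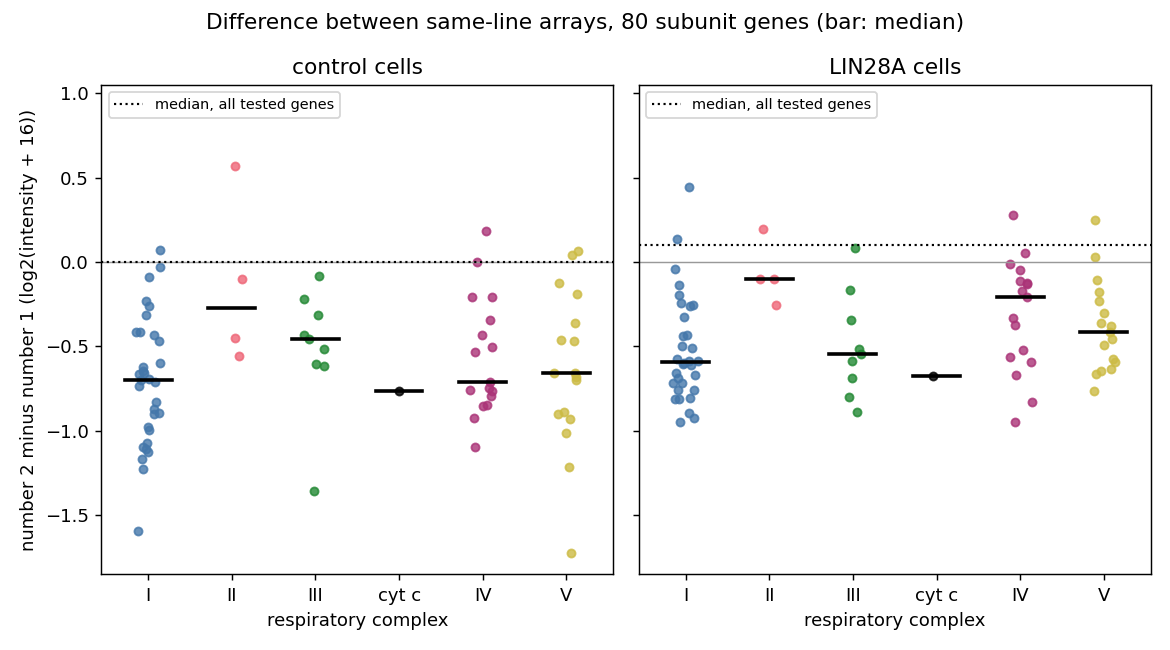
Difference between the arrays of the same line, number 2 minus number 1 on the log2(intensity + 16) scale, for 80 subunit genes by complex, with control cells at left and LIN28A cells at right. Bars are medians and the dotted line is the median of all 8930 tested genes; 74 points in control, against 72 in LIN28A cells lie below 0.

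Other genes that serve the pathway were followed from lists of textbook members. Of 46 listed assembly factors 34 were measured, with medians of -0.090 and -0.052 in numbers 1 and 2. Of these 15 lay below control in both numbers and 8 above, and both LIN28A arrays were below both control arrays for 7 and above for 1. The shares over all tested probe sets were 33.3% below and 24.2% above in both numbers, and 15.5% below and 10.0% above without overlap, and they serve for the lists that follow too. None passed limma's adjusted threshold. The genes named here and from the citric acid cycle and biogenesis lists below had the lowest unadjusted p of their list in limma's fit. They were thus picked for their difference and do not stand for their list. The assembly factors named all lay below control in both numbers, though 13 and 14 of the 34 lay above it in numbers 1 and 2. Oxa1l, which inserts proteins into the inner membrane, read 244 and 489.6 in control, against 166 and 184 in LIN28A cells. Surf1, which acts in complex IV assembly, read 187 and 240.3 against 180.5 and 143. Bcs1l, which places the Rieske protein in complex III, read 212 and 258.5 against 182 and 162, and Uqcc3, an assembly factor of complex III, read 165 and 185 against 134 and 132.

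The 16 measured genes of the citric acid cycle and pyruvate dehydrogenase, which supply the NADH and succinate, had medians of 0.058 and -0.0044, with 2 below control in both numbers and 4 above. Citrate synthase, Cs, read 1408 and 1793 in control, against 1414 and 1080.0 in LIN28A cells, so its difference came from number 2. Idh3b, a subunit of NAD-linked isocitrate dehydrogenase, read 885 and 955 against 844.5 and 722. Pcx read 104 and 114 against 44.0 and 119, so it changed side. Dlst read 376 and 492 against 458 and 529, above control in both numbers. Both LIN28A arrays were below both control arrays for 1 gene of this list and above for 0. The median of number 2 minus number 1 for this list was 0.21 in control and -0.078 in LIN28A cells. The 15 measured genes of mitochondrial biogenesis had medians of 0.13 and -0.27, with 4 below control in both numbers and 4 above. Both LIN28A arrays were below both control arrays for 3 of them and above for 2. Ppargc1a, the PGC-1alpha coactivator of these genes, read 22.2 and 12.3 in control, against 3.70 and 3.40 in LIN28A cells. These values were near or below the pseudocount of 16, and in LIN28A cells under the filter value of about 8.04. Polg2, the accessory subunit of the mitochondrial DNA polymerase, read 173 and 193 in control, against 140.5 and 106 in LIN28A cells. Esrra, a nuclear receptor partner of PGC-1alpha, read 78.0 and 70.8 against 58.9 and 53.7, and Polg, the polymerase itself, read 121 and 110.4 against 143 and 138. None of the lists had a gene past the adjusted threshold in limma's fit. Of the 13 subunits coded in mitochondrial DNA, 1 was matched to a probe set here, the complex I subunit mt-Nd5 (annotated as ND5), which read 1279 and 1643 in control, against 1180 and 1843 in LIN28A cells. Its arrays overlapped, and it read higher in number 2 than in number 1 in both lines, opposite to most nuclear-coded subunits.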

How the data were processed

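The labels describe 4 arrays of P19 cells, 2 of control and 2 of LIN28A cells. Per the labels' protocols, cDNA was primed with oligo(dT) and transcribed to cRNA carrying biotin. The authors deposited linear intensity values per probe set, which have the same trimmed mean in each array. For the software that summarised the probes, the sources used here name none. No detection calls were at hand. Names came from the platform annotation of 20380 probe sets with 1 symbol. All 80 gene identifiers were found in RefSeq's gene table.

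Values were turned into log2(intensity + 16), which understates changes of low genes. Affymetrix controls (64 probe sets) were removed, as were, for the test, probe sets under the 30th percentile of mean log2 (a linear value of about 8.04). The lines were compared over 15838 probe sets with limma 3.58.1 in R 4.3.3 (lmFit and eBayes, no block), with Benjamini-Hochberg adjustment at 0.05, and the code was tested on simulated data. With 2 arrays against 2, a two-sided exact permutation test cannot go below 0.333, so none was run. Summaries used pandas 2.3.3. The number of arrays limits the precision. The number was not taken to pair arrays, because the labels share only the number.

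The members and lists were chosen with earlier results of these data known. Named subunit genes were those with no overlap between lines, the extremes and brightest of each complex, the complex II genes, Cyc1 and Cycs. The isoform sets and genes whose probe sets disagreed in sign were named as well. Extremes and separated genes were taken at a mean intensity of 16 or more. From the assembly, citric acid cycle and biogenesis lists, the genes of lowest unadjusted p in limma's fit were named. Alternatives covered pseudocount, scaling, filter, probe-set choice, the replicate block and leaving out each array.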

Additional observations from a re-analysis of the deposited data

How the results depend on the processing

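All settings below were planned. Each refit with limma called 0 probe sets in either direction except the replicate block, which called 1 higher and 0 lower and no subunit gene. Before adjustment, 70 probe sets higher and 192 lower became 167 and 107 under median centring, 122 and 168 under quantile normalization, 158 and 362 with no filter, 51 and 89 under a stricter filter, the median of mean log2, 61 and 305 with a pseudocount of 1, 145 and 177 with 64, and 80 to 133 and 148 to 317 without 1 array. Same-numbered arrays deviated together (r = 0.62 over all tested probe sets and 0.73 over the subunit genes), but with 2 pairs that share only a number the block is not taken as a pairing. With the replicate block the unadjusted count went from 70 to 468 higher and from 192 to 890 lower, out of 15838 tested probe sets. Of the 78 subunit genes tested, 3 were among those higher and 5 among those lower. The rise was thus not confined to subunit genes, and the lowest adjusted p of a subunit gene in limma's fit with the block was 0.55. The within-number results do not depend on the block.

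Leaving out 1 array lets the large number difference into the line difference by construction. The median of all 80 genes then ran from -0.38 (without control replicate 2) to 0.24 (without control replicate 1), against -0.012 with all arrays. The same range was -0.34 to 0.45 for complex I, -0.12 to 0.054 for complex II, -0.38 to 0.19 for complex III, 0.24 to 1.0015 for Cycs, -0.40 to 0.10 for complex IV, -0.31 to 0.26 for complex V.

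Median centring of each array moved the median of all tested genes from -0.037 to 0.090. It moved the within number 1 medians to 0.081 for all subunit genes, 0.14 for complex I, 0.17 for II, 0.10 for III, 0.78 for Cycs, -0.090 for IV and 0.083 for V, and in number 2 to 0.032 for II and 0.0014 for III. Over both numbers it gave 0.089 for II, 0.052 for III and 0.75 for Cycs. It left 4 genes with both LIN28A arrays below both control arrays, against 10, and 4 above, against 5. The shares over all tested probe sets under this scaling were not computed. Quantile normalization gave -0.066 for II over both numbers and -0.078 in number 1, -0.0061 for III in number 2, 0.74 for Cycs in number 2 and -0.069 for IV in number 1. Over both numbers complex IV went from -0.15 to -0.021 under median centring and -0.028 under quantile normalization.

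Averaging all probe sets of a gene gave complex II -0.070 over both numbers, -0.22 in number 1 and -0.0040 in number 2, complex III -0.051 in number 1 and Cycs 0.65 in number 1. Apart from the construction of leaving out arrays, the cause of these moves was not tested. The pseudocounts of 1 and 64 took complex IV in number 1 from -0.29 to -0.45 and -0.14. The other settings kept the medians within 1 SD between the numbers.

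Of 549 values of named genes under other settings, 484 kept their direction and 65 changed sign. Without 1 array the log2 difference ran from -0.11 to 0.55 for Ndufa12, from -0.48 to 0.21 for Ndufa7, from -0.60 to 0.27 for Ndufb9, from -0.38 to 0.51 for Ndufs4, from -0.18 to 0.41 for Ndufs8, from -0.053 to 0.14 for Ndufv1, from -0.30 to 0.27 for Sdha, from -0.34 to 0.22 for Sdhb, from -0.18 to 0.034 for Cyc1, from -0.28 to 0.32 for Uqcr10, from -0.46 to 0.90 for Uqcr11, from -0.26 to 0.32 for Uqcrb, from -0.56 to 0.24 for Uqcrh, from -0.49 to 0.20 for Uqcrq, from -0.75 to 0.10 for Cox4i1, from -0.41 to 0.54 for Cox5a, from -0.40 to 0.40 for Cox5b, from -0.68 to 0.17 for Cox6a1, from -0.56 to 0.54 for Cox6b1, from -0.39 to 0.37 for Cox7a2, from -0.37 to 0.070 for Cox8a, from -0.66 to 0.099 for Cox8c, from -0.78 to 0.15 for Atp5e, from -0.031 to 0.46 for Atp5g1, from -0.37 to 0.53 for Atp5g3, from -0.63 to 1.09 for Atp5md, from -0.55 to 0.14 for Atp5pb. With the probe sets averaged it was -0.034 for Ndufs8, -0.093 for Ndufv1, 0.13 for Sdha, -0.082 for Sdhd, -0.069 for Uqcr10, -0.031 for Uqcrb, 0.0079 for Uqcrq, -0.18 for Cox5b, 0.0043 for Cox6b1. Under median centring it was 0.11 for Sdha, 0.069 for Sdhb, 0.052 for Cyc1, 0.11 for Cox6b1, 0.12 for Cox7a2, and under quantile normalization 0.17 for Cox6b1 and 0.28 for Cox7a2. Ndufa4, Cycs, Ndufa5, Ndufa3, Ndufa6, Atp5g2, Cox7a2l, Cox6b2 and Cox7c kept their direction under every setting run. They were picked from these same values for their wide differences, so this adds no support. Where the arrays of the lines do not overlap, leaving out 1 array cannot reverse the sign.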

Other observations

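Of the 44 subunit genes with several probe sets, 29 had all of them on 1 side of 0 in the mean difference between lines and 15 had probe sets on both sides. Among the 39 genes with at least 2 probe sets of mean intensity 100 or more, counting those probe sets alone, 10 had both signs. Ndufs8, a core subunit of complex I, spanned -0.21 to 0.11 over 6 probe sets, and Cox5b spanned -0.63 to 0.0003 over 6, its lowest value coming from a probe set that read 30.7 and 17.9 in control, against 9.30 and 10.1 in LIN28A cells.

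Of the 7 probe sets with a subunit symbol and another symbol, 1 of those shared by Ndufb4 and its copies read 1549 and 755.5 in control, against 1341 and 925 in LIN28A cells. The probe set shared by Ndufs6 and Ndufs6b read 709 and 330.4 against 768 and 417, and the probe set shared by Ndufa11 and Ndufa11b read 573 and 409.6 against 654 and 539. In each of these the arrays of the lines overlapped and array 2 read lower than array 1 in both lines.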
